A study of Homo sapiens with 13 samples.

Results

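Integrated stress response and uORF genes were examined in MDA-MB-231 cells, a human triple-negative breast cancer line, treated with inhibitors of cap-dependent translation. The set comprised 10 genes, of 24875 gene symbols in the Silvestrol table and 13121 in the INK128 table. It was built around DDIT3 and IFRD1, selected because their translational efficiency (TE) was reduced relative to other genes with both drugs. It was completed with ATF4, ATF5, PPP1R15A, PPP1R15B, TRIB3, ASNS, SLC7A11 and SESN2. The TE changes of DDIT3 and IFRD1 with either drug are therefore given as a description and without a test. In the first experiment, ribosome footprints (RFs) were sequenced after 1 h or 2 h in DMSO, after 1 h or 2 h in 25 nM Silvestrol, and without treatment. Both 2 h treatments were repeated in a second culture (passages 3 and 4, or replicates 1 and 2). mRNA came from the passage 3 cells at 2 h, with a single library for DMSO and a single one for Silvestrol. In the second experiment, RFs and total RNA were sequenced from cells given DMSO or 200 nM INK128, a catalytic mTOR inhibitor, for 2 h, in 1 library each. All libraries came from a single cell line, and apart from the RFs at 2 h no value has a replicate.

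The integrated stress response starts when stress-sensing kinases phosphorylate the initiation factor eIF2, which lowers translation of most mRNAs while that of a few with upstream open reading frames (uORFs) goes up. ATF4, ATF5 and DDIT3 (CHOP) are transcription factors whose coding sequences are translated under the control of such uORFs. PPP1R15A (GADD34) and PPP1R15B (CReP) direct a phosphatase to eIF2 and so end or restrain the response. TRIB3, ASNS, SLC7A11 and SESN2 are known ATF4 targets. Silvestrol blocks the RNA helicase eIF4A, which unwinds 5′ UTRs for the scanning ribosome.

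The start sites that scanning ribosomes would meet are shown first, because the 10 genes were grouped for this kind of control. In the MANE Select transcripts (GENCODE version 44 on GRCh37, the build called hg19 in the study), 9 of 10 genes had at least 1 ATG in the 5′ UTR and 7 had 2 or more, whereas 41.9% of all 19560 protein-coding genes had at least 1 and 23.2% had 2 or more. ASNS had none. The 5′ UTRs of the 10 genes had a median length of 281 nucleotides, compared with 132.5 for all genes. Their median density, 0.56 ATGs per 100 nucleotides, was reached by 29.9% of genes. Among genes with at least 1 ATG in the 5′ UTR, the median density was higher, at 0.83.

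The upstream ATGs (uATGs) of 5 genes are given with 6 bases on each side, 5′ to 3′ on the strand of the gene and with the ATG in capitals. ATF4, ATF5 and DDIT3 are shown because their last uORF runs into the coding sequence, and IFRD1 and PPP1R15B because theirs do not.
ATF4 uATG 1: ccacagATGtagttt
ATF4 uATG 2: gccaccATGgcgtat
ATF4 uATG 3: taagccATGgcgctt
ATF5 uATG 1: ccggccATGgctctg
ATF5 uATG 2: gcagccATGgagtct
DDIT3 uATG 1: cgtatcATGttaaag
DDIT3 uATG 2: ttaaagATGagcggg
DDIT3 uATG 3: aagcagATGtgcttt
DDIT3 coding start: gcagagATGgcagct
IFRD1 uATG 1: agaaacATGtatcgt
IFRD1 coding start: cccacgATGccgaag
PPP1R15B uATG 1: ctatccATGgtgttg
PPP1R15B uATG 2: gccaggATGgaagtc

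In ATF4, uATG 2 (chr22:39916653-39916655, plus strand) opened a frame of 3 codons, and uATG 3 (chr22:39916752-39916754) opened a frame of 59 codons that overlapped the coding sequence. ATF5 had the same arrangement, with a frame of 3 codons (chr19:50432531-50432533, plus strand) followed by an overlapping frame of 59 codons (chr19:50432653-50432655). Both uATGs of ATF5 and uATGs 2 and 3 of ATF4 were in a strong context, defined here as a purine 3 bases before the ATG and a G just after it. DDIT3 carried a pair of uATGs (chr12:57914261-57914263 and chr12:57914252-57914254, minus strand) that opened frames of 34 and 31 codons ending in the 5′ UTR, both in an intermediate context, with 1 of these 2 bases in place. Its last uATG (chr12:57911219-57911221) lay 32 nucleotides before the coding sequence and opened an overlapping frame of 73 codons in a weak context. IFRD1, which encodes a transcriptional coregulator, had 1 uATG (chr7:112090542-112090544, plus strand) with a frame of 52 codons that closed within the 5′ UTR. PPP1R15B had 2 closed frames, of 8 and 51 codons (chr1:204380816-204380818 and chr1:204380768-204380770, minus strand), and PPP1R15A, TRIB3 and SLC7A11 also had 2 closed frames each, while SESN2 had 1.

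**Figure D1:**
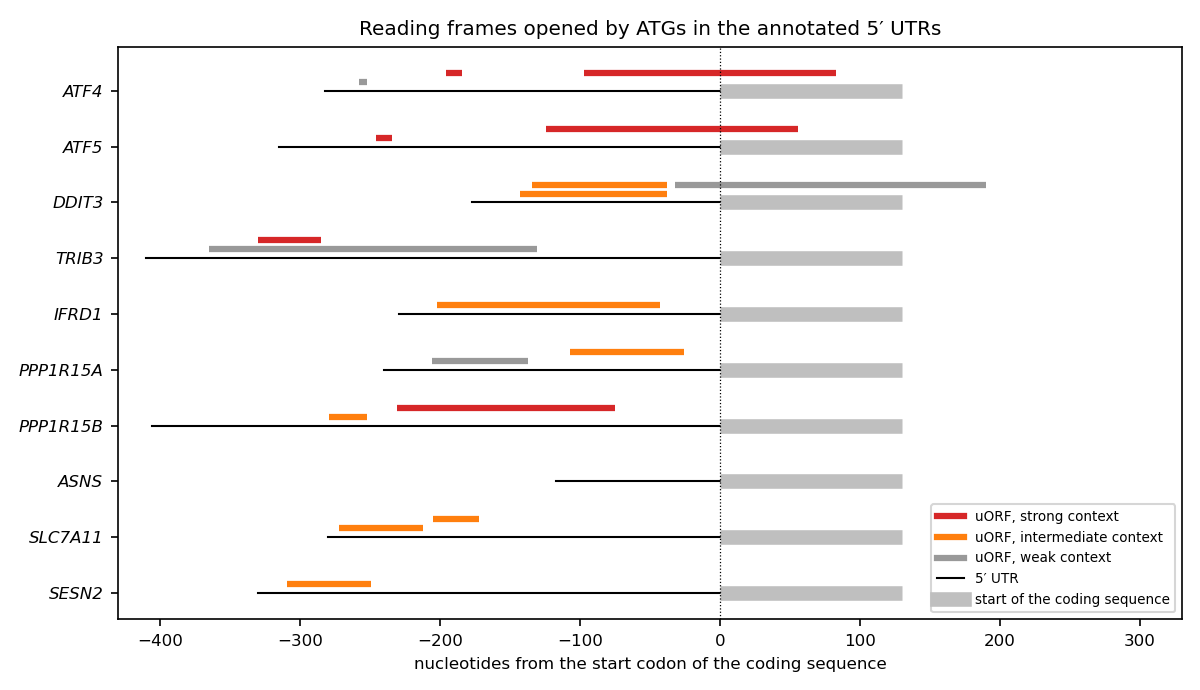
Each row is the annotated 5′ UTR of a gene (thin line) drawn to scale to the left of the coding sequence (grey, first bases only), in nucleotides from the start codon, and coloured bars are reading frames opened by uATGs, coloured by context. The last uORF of ATF4, ATF5 and DDIT3 crosses the start codon, the uORFs of the other genes end before it, and ASNS has none.

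The promoters of the 10 genes were searched for TGATGNAA, the core of the element bound by ATF4 with C/EBP factors, on both strands from 250 bases before to 50 bases after each annotated start (RefSeq, GRCh38.p14). It is shown because 4 of the genes were included as ATF4 targets. Windows were given for 9 of the 10 genes, with 1 to 4 windows each, and 3 of these 19 windows, in 3 genes, had a match, as did 3.62% of all 35116 windows. No window was given for SLC7A11. The matched bases are in capitals.
ASNS (first base at −68 from the start): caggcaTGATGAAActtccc
PPP1R15B (first base at −227): cccggcTGATGCAAcctcac
IFRD1 (first base at 19): ccatgtTGATGAAAttcatt
The match was found in 1 of 2 windows of ASNS, in the only window of PPP1R15B and in 1 of 4 windows of IFRD1, all on the strand of the gene. A match says only that these letters are in the window.

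Between 2652423 reads (RFs of passage 4 under Silvestrol) and 50315607 reads (mRNA under DMSO) were counted per library, so passage 4 carried the least precise values, and for INK128 only FPKM values were used and the depth is unknown. VIM, CD44, AXL and CAV1, which mark the mesenchymal state of the line, had mRNA RPKM values from 141.1 to 1461, whereas ESR1, PGR, CDH1, EPCAM, PTPRC and PECAM1 lay between 0 and 6.47, with EPCAM highest. For 2 libraries the label fields disagree: the Silvestrol RFs of passage 3 at 2 h are once given as 1 h, and the DMSO mRNA once as untreated. Both were used as titled. The column of the control mRNA library names no treatment, and all TE changes with Silvestrol rest on it. RPKM is relative to all counted reads of its library and averages over all cells, so fewer cells carrying a transcript and less of it per cell cannot be told apart.

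IFRD1 footprints were the most reduced of the 10 genes. Its RF RPKM was 73.5 in untreated cells, 65.9 with DMSO and 28.5 with Silvestrol at 1 h. At 2 h it was 67.5 and 53.5 with DMSO and 15.04 and 17.0 with Silvestrol in passages 3 and 4. Every Silvestrol value thus lay below every value without the drug, and the values at 2 h lay below that at 1 h. The passage 3 values at 2 h are among those that chose IFRD1. At 2 h, 39.8% of 10641 genes had both Silvestrol values below both DMSO values. In the edgeR fit the log2 change at 2 h was −1.80 (n = 2 per treatment), given as a description. The read counts behind the Silvestrol values at 2 h were 344 and 80.

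DDIT3 footprints were also lower in every Silvestrol library. Its RF RPKM was 29.9 in untreated cells, 35.8 with DMSO and 18.1 with Silvestrol at 1 h. At 2 h it was 42.8 and 31.6 with DMSO and 16.1 and 17.6 with Silvestrol in passages 3 and 4. At 2 h both Silvestrol values lay below both DMSO values, as in 39.8% of 10641 genes. The passage 3 values at 2 h are among those that chose DDIT3. The log2 change at 2 h was −1.02 (n = 2 per treatment), given as a description. DDIT3 was read less deeply than IFRD1, with 133 and 30 reads in the Silvestrol libraries at 2 h.

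**Figure D2:**
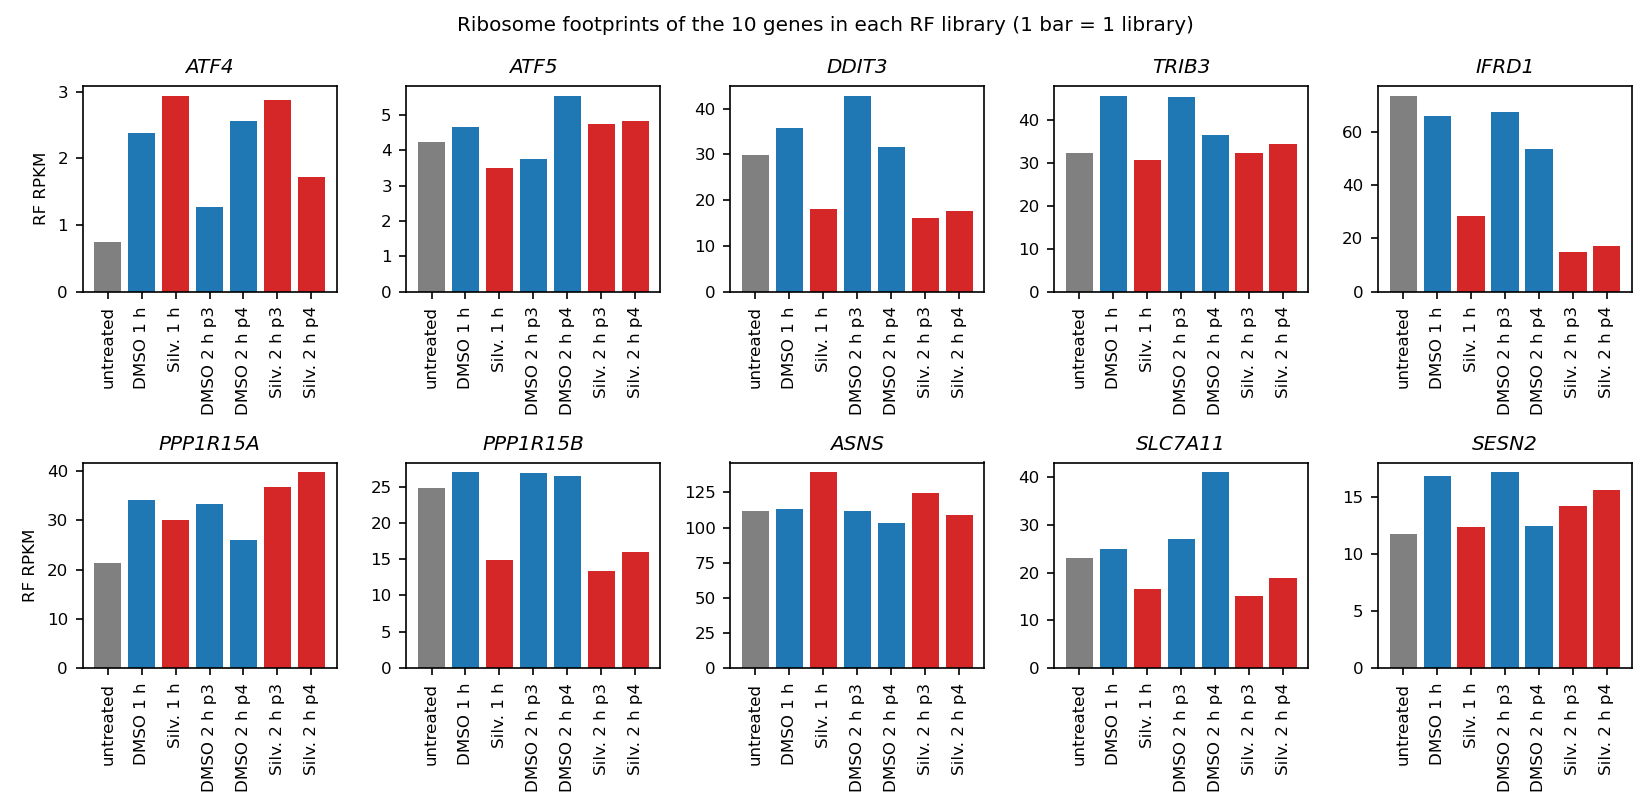
Each panel shows the RF RPKM of a gene (linear axis from 0, scaled per gene) in the 7 RF libraries, 1 bar per library: untreated (grey), DMSO (blue) and Silvestrol (red), with p3 and p4 for passages 3 and 4. IFRD1, DDIT3, PPP1R15B, SLC7A11 and, by a narrow gap in passage 4, TRIB3 are lower with Silvestrol at 1 h and in both passages at 2 h, ASNS and PPP1R15A are not lower at 2 h, and ATF4 and ATF5 stay below 6 RPKM.

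The phosphatase subunits differed in direction. PPP1R15B, the constitutive subunit, had an RF RPKM of 26.9 and 26.4 with DMSO at 2 h and of 13.4 and 16.04 with Silvestrol. Its Silvestrol values lay well below the DMSO values and the DMSO values were almost equal. PPP1R15A, the stress-induced subunit, had 33.3 and 25.9 with DMSO at 2 h and 36.8 and 39.8 with Silvestrol, and both Silvestrol values lay above both DMSO values. DDIT3 and IFRD1 were chosen by ratios of these values. Of the 8 other genes, 3 had both Silvestrol RPKM values below both DMSO values at 2 h (PPP1R15B, TRIB3 and SLC7A11), as did 39.8% of 10641 genes, and 1 had both above, as did 20.3%.

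SLC7A11, the light chain of the cystine and glutamate exchanger, had an RF RPKM of 27.1 and 41.1 with DMSO at 2 h and of 15.04 and 18.9 with Silvestrol. The DMSO values were thus further apart than those of PPP1R15B, but passage 4 was the higher within each treatment. TRIB3, a pseudokinase, had 45.5 and 36.5 with DMSO and 32.3 and 34.5 with Silvestrol, so the groups were separated by a narrow gap. SESN2, a leucine sensor that restrains mTORC1, had 17.1 and 12.4 with DMSO and 14.2 and 15.6 with Silvestrol, and its groups overlapped.

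ASNS, which makes asparagine, had the highest RF RPKM of the set in every library, with 111.4 and 103.2 with DMSO at 2 h and 124.9 and 108.9 with Silvestrol, and its groups overlapped. ATF4 and ATF5 had the lowest. ATF5 had an RF RPKM of 3.74 and 5.54 with DMSO at 2 h and of 4.74 and 4.82 with Silvestrol. ATF4 had 1.27 and 2.55 with DMSO and 2.88 and 1.72 with Silvestrol, from 5 to 24 reads per library, and the passages went in opposite directions. The length of ATF4 over which RF reads were counted, taken as reads over RPKM, varied by 3.13 times between libraries, compared with 1.13 times for 8 of the other genes and 1.83 times for ASNS. ATF4 mRNA reads were counted over 199.4 to 208.9 nucleotides, or 14.7% of the transcript, whereas in the DMSO cells of the INK128 table ATF4 had the highest RF value of the set (50.5 FPKM). The ATF4 levels and ratios of the Silvestrol table, RFs and mRNA alike, are therefore uncertain and not only of low precision.

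Of the 8 genes that could be tested, 0 passed an adjusted p-value of 0.05 for RF counts at 2 h in the edgeR quasi-likelihood test, compared with 5.96% of 11196 genes called lower and 1.54% called higher. At an unadjusted p-value under 0.05 there were 3 of 8, beside 29.6% of genes, and DESeq2 called 2 lower, as it did 8.66% of genes. PPP1R15B had a log2 change of −0.74 (SE 0.16, adjusted p = 0.059 by edgeR) and SLC7A11 one of −0.87 (SE 0.24, adjusted p = 0.088 by edgeR). PPP1R15A had a log2 change of 0.49 (SE 0.19, adjusted p = 0.156 by edgeR) and ASNS one of 0.41 (SE 0.18, adjusted p = 0.206 by edgeR). TRIB3, SESN2, ATF5 and ATF4 had log2 changes of −0.17, 0.13, 0.21 and 0.79, with SEs of 0.20, 0.24, 0.34 and 0.73. The ATF4 value was 0.038 without DMSO replicate 1 and 1.71 without DMSO replicate 2.

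When the passage was entered as a block, which the shared cultures call for, the RF test called 26.7% of genes lower and 23.9% higher, and 4 of the 8 genes passed. PPP1R15B fell (log2 change −0.76, SE 0.14, adjusted p = 3.08e-07 by edgeR with the block) and SLC7A11 fell (−0.82, SE 0.14, adjusted p = 7.67e-08). PPP1R15A rose (0.48, SE 0.12, adjusted p = 0.00028 by edgeR with the block) and ASNS rose (0.42, SE 0.11, adjusted p = 0.00057). With the counted length as an offset beside the block, the ASNS change was 0.19 (adjusted p = 0.199 by edgeR) and no longer passed. With the libraries at 1 h added to the block, the PPP1R15A change was 0.30 (adjusted p = 0.0717 by edgeR) and no longer passed. The block called 50.5% of all genes tested, so 4 of 8 is no larger than that background.

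mRNA did not go down with footprints. In passage 3 at 2 h, mRNA RPKM was higher with Silvestrol than with DMSO for DDIT3 and IFRD1, whose TE values rest on it, and for the 8 other genes, whose log2 ratios ran from 0.05 to 1.34. Of 13154 genes, 53.1% were higher, and the median gene had 0.05. SLC7A11 mRNA went from 8.97 to 22.6 RPKM (log2 ratio 1.34) and was the 1 of the 8 at least 2-fold higher relative to the median gene, as were 5.31% of genes. DDIT3 mRNA went from 39.1 to 98.1 RPKM (log2 ratio 1.33). PPP1R15A mRNA was 76.2 with DMSO and 143.6 with Silvestrol, PPP1R15B mRNA 13.1 and 22.3, and IFRD1 mRNA 20.6 and 32.0. ATF5 mRNA was almost equal, at 20.7 and 21.4. These are single libraries and were not tested.

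**Figure D3:**
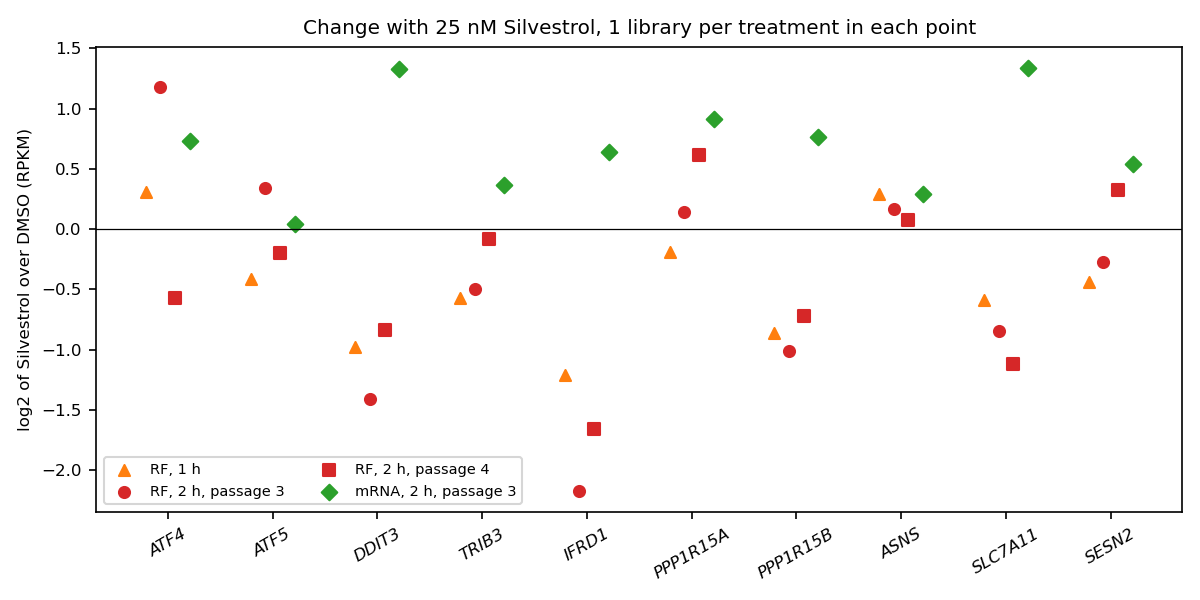
Points are log2 ratios of Silvestrol over DMSO in RPKM for RFs at 1 h (triangles), RFs at 2 h in passage 3 (circles) and passage 4 (squares) and mRNA at 2 h (diamonds), each from 1 library per treatment. All 10 mRNA points lie above 0, while all RF points of DDIT3, IFRD1, PPP1R15B, SLC7A11 and TRIB3 lie below it, the last at −0.08 in passage 4.

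Lower footprints over more mRNA gave the lowest TE changes. ∆TE was the ratio of RF to mRNA RPKM with Silvestrol over that with DMSO, and its log2 was turned into a z-score over 10516 genes with thresholds of −1.5 and 1.5. IFRD1 had a log2 ∆TE of −2.80 (z-score −2.52) and DDIT3 one of −2.74 (z-score −2.45), which are the values that chose them. SLC7A11 followed with −2.18 (z-score −1.89) and was the 1 of the 8 other genes below −1.5, where 6.52% of all genes lay, and 0 of the 8 lay above 1.5, where 4.62% lay. PPP1R15B was just outside the threshold, with −1.78 (z-score −1.478). With RFs of passage 4 over the same mRNA libraries, the z-scores were −2.06 for IFRD1, −1.93 for DDIT3, −2.23 for SLC7A11 and −1.23 for PPP1R15B, so SLC7A11 was again the 1 of the 8 other genes below −1.5, where 6.62% of 10578 genes lay. PPP1R15A (−0.46), TRIB3 (−0.56), SESN2 (−0.51) and ASNS (0.19) had z-scores nearer 0 in passage 3.

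In the edgeR model of assay and treatment over the 6 libraries at 2 h, 0 of the 8 genes passed for TE, compared with 0.0214% of 14023 genes called lower and 0% higher. At an unadjusted p-value under 0.05 there were 2 of 8, beside 17.9% of genes, and DESeq2 called 2 lower, as it did 3.3% of genes. SLC7A11 had a log2 TE change of −2.11 (SE 0.39, adjusted p = 0.104 by edgeR) and PPP1R15B one of −1.38 (SE 0.28, adjusted p = 0.117 by edgeR). With the passage as a block, where 17.8% of genes were called lower and 17.2% higher, the log2 TE change was −2.04 for SLC7A11 (SE 0.22, adjusted p = 8.31e-19 by edgeR) and −1.39 for PPP1R15B (SE 0.22, adjusted p = 1.11e-08 by edgeR). For PPP1R15A, whose RFs rose with the block, the TE change was −0.32 (SE 0.20, adjusted p = 0.229 by edgeR). The mRNA arms hold 1 library each, so the spread in this model comes from the RF libraries, and its p-values hold none between mRNA libraries.

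The same genes stood at different levels of TE with DMSO at 2 h. In the DMSO libraries of passage 3 the median gene had a TE (RF over mRNA RPKM) of 1.84 among 10574 genes. IFRD1 had 3.28, SLC7A11 3.02, ASNS 2.99, PPP1R15B 2.05 and SESN2 1.81. DDIT3 had 1.10, TRIB3 0.876, PPP1R15A 0.437 and ATF5 0.180, and ATF5 lay at percentile 1.96 of all genes. With Silvestrol in passage 3, DDIT3 had a TE of 0.164 and IFRD1 one of 0.470, and DDIT3 then lay at percentile 1.88. With DMSO RFs of passage 4 over the same mRNA, SLC7A11 had 4.58, ASNS 2.77 and IFRD1 2.60, so the order of these genes changed. Outside ATF4 and ASNS, the length over which RF reads were counted kept a near-constant proportion to the coding length (121% to 127% in the library with the lowest value) and not to the transcript, so TE is read here as that of the coding sequence, and ribosomes on uORFs before it were not measured.

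Across all genes, TE changes with Silvestrol went with the number of uATGs. The median log2 ∆TE was −0.01 for 5539 genes with no uATG, −0.50 for 1700 genes with 1, −0.82 for 1400 genes with 2 to 4 and −1.41 for 368 genes with 5 or more. Median 5′ UTR length went from 89 to 548.5 nucleotides over the same bins, and its part in the pattern was not tested. IFRD1 with 1 uATG and DDIT3 with 3 lay below these medians, by the values that chose them. PPP1R15B and SLC7A11 with 2 had lower values, TRIB3 (−0.86) and PPP1R15A (−0.77) with 2 were near their bin, and ATF5 with 2 was above it (0.30). SESN2 with 1 uATG had −0.81 and ASNS with none −0.12. ATF4 with 3 had 0.45 with RFs of passage 3 and −1.30 with those of passage 4, above its bin in one and below it in the other. With INK128 the same medians were 1.18, 1.22, 1.25 and 1.29.

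IFRD1 and DDIT3 also had the lowest RF ratios of the set at 1 h. At that time, 0 of the 8 other genes had RFs at least 2-fold lower with Silvestrol relative to the median gene, as 4.89% of 10580 genes did. IFRD1 had a log2 ratio of −1.21, DDIT3 one of −0.98 (35.8 and 18.1 RPKM) and PPP1R15B one of −0.86 (27.0 and 14.8 RPKM), while the median gene had −0.19. SLC7A11 had −0.59, TRIB3 −0.57, SESN2 −0.44 and ASNS 0.29. Between 1 h and 2 h in passage 3, the RFs of IFRD1 under Silvestrol went from 28.5 to 15.04 RPKM, those of DDIT3 from 18.1 to 16.1 and those of PPP1R15B from 14.8 to 13.4. The values of IFRD1 and DDIT3 at 2 h are among those that chose them.

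Footprints of part of the set were higher in the DMSO libraries of passage 3 than in untreated cells. Both times were compared with the same untreated library, so a low value in it would raise both ratios, and they are not independent. Relative to the median gene, the log2 ratio of DMSO over untreated RFs was 0.69 at 1 h and 0.68 at 2 h for PPP1R15A, 0.51 and 0.53 for TRIB3 and 0.53 and 0.59 for SESN2. The untreated values of these 3 genes were 21.4, 32.4 and 11.7 RPKM, and their ratios lay above percentile 96.9 of all genes. DDIT3 had 0.27 at 1 h and 0.56 at 2 h, at percentiles 89.5 and 97.5, so its DMSO value at 2 h, from which the Silvestrol ratio was taken, lay above the untreated one. ATF4 had 1.68 and 0.81, from 11 to 26 reads, and was the 1 of 10 genes at least 2-fold higher at 1 h, as were 0.609% of genes. ASNS (0.04 and 0.04) and IFRD1 (−0.15 and −0.08) were near the median gene. The libraries compared here are single libraries of passage 3, so no test was made.

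With INK128, the lowest RF ratios of the set were those of IFRD1 (log2 ratio −0.75) and SESN2 (−0.74). The RF values of IFRD1 and DDIT3 here are among those that chose them. IFRD1 had 16.2 FPKM in RFs with DMSO and 9.60 with INK128, SESN2 3.05 and 1.82, PPP1R15B 13.4 and 8.74 and ATF4 50.5 and 34.5. DDIT3 had 16.8 and 13.4, TRIB3 8.88 and 7.63, and ASNS 32.3 and 28.2. PPP1R15A (45.6 and 55.5), SLC7A11 (2.87 and 3.53) and ATF5 (6.87 and 7.09) were higher with INK128. No RF value of the 10 genes differed by 2-fold relative to the median gene, as 1.56% of 10843 genes did downward and 1.18% upward.

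TE with INK128 was taken over total RNA, whose FPKM was lower for most genes. FPKM is relative to its library, so a lower value is not by itself less RNA of a gene per cell. Across 10854 genes the median log2 ratio of total RNA FPKM, INK128 over DMSO, was −1.17, and 3.08% of genes were above 0. Against this shift, DDIT3 went from 0.880 to 0.714 FPKM (0.87 above the median gene on the log2 scale), IFRD1 from 23.4 to 16.4 (0.66), PPP1R15A from 4.79 to 3.35 (0.66) and TRIB3 from 1.07 to 0.739 (0.64). PPP1R15B went from 1.19 to 0.352 FPKM (−0.59). The total RNA value of IFRD1 was far above the 0.274 to 4.79 FPKM of the other 9 genes with DMSO, and its TE of 0.690 lay at percentile 3.03 of genes there, compared with percentile 73.9 in the DMSO cells of the Silvestrol experiment. Whether all of this value comes from IFRD1 mRNA was not settled, and the TE and z-score of IFRD1 with INK128 rest on it.

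**Figure D4:**
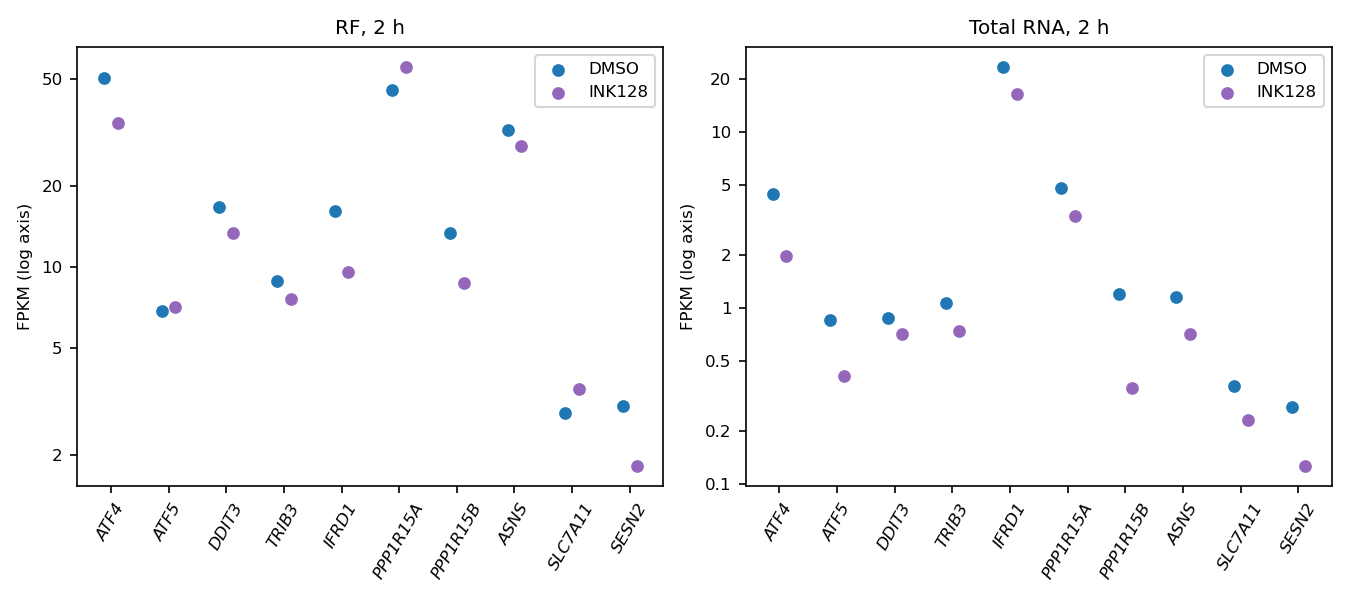
RF FPKM (left) and total RNA FPKM (right) of the 10 genes on log axes, with DMSO in blue and INK128 in purple and 1 library per point. All total RNA points are lower with INK128, in a table where the median gene was also lower, and IFRD1 stands above the other genes in total RNA.

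The z-scores for INK128 were lowest for IFRD1 (−2.65) and DDIT3 (−2.24), the values that chose them, followed by TRIB3 (−1.58). TRIB3 was the 1 of the 6 other genes with a value that lay below −1.5, where 5.58% of 7102 genes lay, and 0 of the 6 lay above 1.5, where 1.75% lay. The mean log2 ∆TE over genes was 1.12, beside the shift in total RNA, and the log2 ∆TE of DDIT3 itself was −0.02 and that of IFRD1 −0.24. ASNS was next outside the threshold, with −1.19, and PPP1R15B had 0.04. SLC7A11 and SESN2 did not reach the minimum for total RNA. With no minimum, their z-scores were −0.33 and −1.30, and TRIB3 then had −1.40. PPP1R15B and SLC7A11 thus stood at −1.478 and −1.89 with Silvestrol and at 0.04 and −0.33 with INK128, and the drugs were used in separate experiments with different units, so this difference was not tested.

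**Figure D5:**
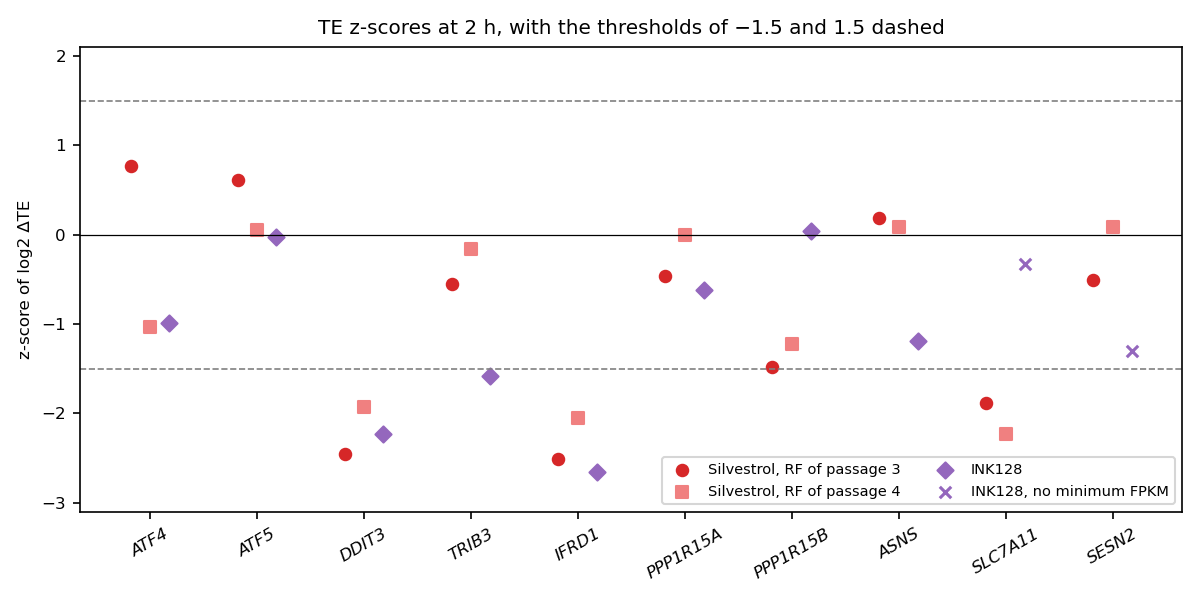
z-scores of log2 ∆TE at 2 h for Silvestrol with RFs of passage 3 (dark red circles) or passage 4 (light red squares) and for INK128 (purple diamonds, or crosses for the 2 genes below the minimum FPKM), with the thresholds dashed. IFRD1 and DDIT3 lie below −1.5 in all 3 readings, SLC7A11 does with Silvestrol and TRIB3 with INK128. The passage 3 and INK128 readings chose IFRD1 and DDIT3, and the passage 4 reading shares its mRNA libraries with that of passage 3.

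The wider pathway was read in the same fits. Among 14 genes of the eIF2 axis (kinases, eIF2 and eIF2B subunits, and the GCN2 regulators GCN1L1 and IMPACT), 0 passed in the RF test without the block by edgeR, and with it 4 were lower and 3 higher, a share no larger than the 50.5% of all genes called. EIF2S1, the phosphorylated subunit, fell (log2 change −0.57, adjusted p = 1.53e-09 by edgeR with the block), and EIF2AK4 (GCN2), the sensor of uncharged tRNA, rose (0.60, adjusted p = 1.97e-07). Of 22 further ATF4 targets tested, 1 was lower without the block, where 5.96% of all genes were, PSPH, the last enzyme of serine synthesis (log2 change −1.03, adjusted p = 0.048 by edgeR), from 50.8 and 47.5 to 19.1 and 18.6 RPKM. With the block 5 were lower and 10 higher, beside 26.7% and 23.9% of all genes, and the higher ones included ATF3, a transcription factor induced by stress (1.13, adjusted p = 1.66e-11 by edgeR with the block). ATF3 mRNA was 8.94 RPKM with DMSO and 34.2 with Silvestrol.

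Other genes known for regulatory uORFs included 2 of 11 that fell in the RF test without the block, where 5.96% of all genes were called lower, AZIN1, an antizyme inhibitor (log2 change −0.91, adjusted p = 0.037 by edgeR), and MDM2, the ubiquitin ligase of p53 (−1.29, adjusted p = 0.038 by edgeR). AZIN1 RFs were 85.5 and 102.7 RPKM with DMSO at 2 h and 41.4 and 50.2 with Silvestrol. MDM2 RFs were 43.8 and 50.6 with DMSO and 14.3 and 21.2 with Silvestrol. The median RF change of these 11 genes was −0.51, compared with −0.02 for all genes, and with the block 6 were lower and 2 higher, beside 26.7% and 23.9% of all genes. With INK128, 5 of 15 ATF4 targets with a z-score lay below −1.5, where 5.58% of all genes lay, with ATF3 (−2.03) and GDF15 (−2.01), a stress-induced secreted factor, lowest. Their RFs were not lower, with 13.0 FPKM with DMSO and 14.9 with INK128 for ATF3 and 11.3 and 20.4 for GDF15, and their total RNA ratios lay 1.28 and 1.93 above the median gene on the log2 scale. Of the 11 other uORF genes, 0 lay below −1.5 and 1 above 1.5 (IBTK, 1.69), where 1.75% of all genes lay, and the difference between the lists was not tested. Of 21 ATF4 targets, 2 had RFs at least 2-fold lower with INK128 relative to the median gene, as did 1.56% of all genes, and 0 higher. RFs of the first, DDIT4, an mTORC1 inhibitor, were 22.4 FPKM with DMSO and 7.92 with INK128. Those of the other, CHAC1, a glutathione-degrading enzyme, were 3.10 and 1.55.

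The genes with the RF pattern most like that of IFRD1 over the 7 RF libraries were GTF3C4, TEX10 and UBE2G1, with Pearson's r of 0.999 each on log2 RPKM among 7013 genes. Those most like DDIT3 were ZFPL1 (0.991), INPP5K (0.989) and AK3 (0.987), and among those most like ATF4 were SS18L2 (0.983) and PSMC6 (0.933). The 7 points of each gene share libraries and treatments, so these values describe similarity only. INPP5K, for example, had 27.6 and 24.6 RPKM with DMSO at 2 h and 16.4 and 17.6 with Silvestrol, a smaller difference than that of DDIT3.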

How the data were processed

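RFs and mRNA (or total RNA) were sequenced from MDA-MB-231 cells. For the Silvestrol table the authors removed linker and rRNA reads, aligned with Bowtie to hg19 and UCSC KnownGene transcripts, and deposited, for each library, RPKM values and counts of reads that mapped uniquely. For the INK128 table the authors deposited FPKM, and the program that made them is not given in the sources used here. The submitters' processing notes name CASAVA 1.8.1 and Bowtie2. The authors' columns of TE, ∆TE, scores and mean RPKM were not used, and 0 per-sample columns were unmapped.

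Repeated lines were dropped (25758 distinct entries of 38897 lines), and for the 546 symbols with several entries that with the highest mean RF RPKM was kept. The quasi-likelihood test of edgeR 4.0.16 (R 4.3.3, filterByExpr, TMM) was run on counts, DESeq2 1.42.0 was an alternative, and genes were called at a Benjamini-Hochberg adjusted p-value under 0.05 over all genes. z-scores used genes with values above 0, a mean RF value of at least 1 and a mean mRNA value of at least 0.3, without a pseudocount. Unreplicated ratios were called at 2-fold relative to the median gene. SEs beside edgeR values were taken as the absolute log2 change over the square root of the F statistic of the test. Python 3.11.15, pandas 2.3.3, numpy 2.4.6 and matplotlib 3.10.9 were used. Tested on simulated data with 200 genes shifted by a log2 change of 2, the RF fit recovered 159 and called 12 unchanged genes, and the TE fit 30 and 1. With the block these were 189 and 7 for RFs and 149 and 9 for TE.

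Passages 3 and 4 are shared by DMSO and Silvestrol per the labels, and the difference between passages under DMSO correlated with that under Silvestrol (r = 0.589 over 10554 genes), so the passages pair the samples. p-values rest on 2 cultures of 1 line. With the block, too few libraries are left to measure the spread of a single gene. Those p-values rest mainly on a spread pooled over all genes and do not measure how well a gene's change repeats between cultures.

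The MANE Select transcript, or else that with the longest coding sequence, gave each 5′ UTR, and 348 transcripts without a matching start, stop or length were left out. The genes named were the 10 members, up to 4 genes per list and direction past the RF test, up to 2 without replicates, and the 3 genes most like ATF4, DDIT3 and IFRD1, of which 1 is not reported here. IFRD1, DDIT3 and the lists were chosen with earlier results of these data known. Alternatives covered the block, tool, scaling, filter, counted length, left-out libraries, pseudocounts and transcripts.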

Additional observations from a re-analysis of the deposited data

Results flagged for a closer look

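PPP1R15A was picked out because its RFs differed from DMSO in opposite directions at the 2 times. The log2 ratio of Silvestrol over DMSO was −0.19 at 1 h (34.2 and 29.98 RPKM), 0.14 at 2 h in passage 3 (33.3 and 36.8 RPKM) and 0.62 at 2 h in passage 4 (25.9 and 39.8 RPKM). Relative to the median gene the value at 1 h was −0.0024. The difference between times was not tested.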

How the results depend on the processing

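For RFs at 2 h, 839 genes were called without the block. The passage block gave 5659, the block with 1 h libraries added 5169, the block with the counted-length offset 5088, DESeq2 1517 and a filter of at least 1 read 1280, and leaving out 1 library gave 0 to 717, with 0 where either Silvestrol library was left out. Of the 8 genes tested, 0 were lower. The block, the block with 1 h added, the block with the offset and DESeq2 each gave 2, the filter of at least 1 read gave 1, and leaving out 1 library gave 0 to 1. Higher calls among the 8 went from 0 to 2 with the block, to 2 with 1 h added and to 1 with block and offset. The 2 were PPP1R15A and ASNS with the block, and ASNS and ATF4 with 1 h added, where PPP1R15A had 0.30 (adjusted p = 0.0717 by edgeR). For TE, 3 genes were called, against 4909 with the block, 5054 with block and offset, 738 with DESeq2, 193 with at least 1 read, 0 with the offset and 0 to 1854 with 1 library left out. The 8 genes had 0 lower TE calls, 2 with the block, 2 with block and offset, 2 with DESeq2, 1 with at least 1 read and 0 to 2 with 1 library left out. The count of 2 arose without either DMSO library (SLC7A11 and PPP1R15B). The cause of these differences was not tested.

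Signs turned for genes with small changes. With 1 library left out, RF changes ranged from −0.0313 to 0.45 for ATF5, from −0.36 to 0.0413 for TRIB3 and from −0.11 to 0.43 for SESN2, and the TE change of ATF4 from −0.46 to 1.21. The RF changes of PPP1R15A (0.30 to 0.72) and ASNS (0.25 to 0.57) varied in size but kept their sign. SESN2 had −0.0522 with 1 h added, and ATF4 had a TE change of −0.064 with the offset. With 1 h added and blocked, the ATF4 RF change was 1.10 (adjusted p = 0.033 by edgeR), from under 40 reads per library. SLC7A11 RFs had −1.12 (adjusted p = 0.045 by edgeR) without DMSO replicate 1 and −0.60 (adjusted p = 0.144) without DMSO replicate 2, and the adjusted p was 0.396 and 0.271 without Silvestrol replicates 1 and 2. The passage block alone changed no RF call of TRIB3, SESN2, ATF5 or ATF4, and no TE call other than those of SLC7A11 and PPP1R15B.

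INK128 z-scores below −1.5 numbered 3 of 8, 5 with median and MAD (adding ATF4, −1.94, and ASNS, −2.30), 2 with a pseudocount of 0.5 and 2 with no minimum (TRIB3 at −1.30 and −1.40) and 0 of 1 with both means at least 5, where only IFRD1 (−0.88) was left. PPP1R15B passed −1.5 with Silvestrol under 4 of 7 alternatives, between −1.52 and −1.62. With the longest annotated 5′ UTR, 10 of 10 genes had a uATG, as did 60.7% of all genes. The least-read library limits values under about 100 reads, and arms with 1 library were assumed to vary like the others.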
